A study of Mus musculus with 6 samples.

Results

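The genes described here encode 9 transcription factors that set up and maintain the myeloid lineage: Spi1, Cebpa, Cebpb, Cebpd, Cebpe, Gfi1, Irf8, Klf4 and Zeb2. Open chromatin at these genes was read from peak lists of the assay for transposase-accessible chromatin (ATAC-seq), in which the Tn5 transposase cuts and tags accessible DNA, in white blood cells from mouse peripheral blood. A peak was assigned to a gene where its summit lay in the gene body or within 3 kb of an annotated transcription start. By this rule 123 peaks in 28 regions were found, out of 62876 regions formed by merging overlapping peaks of all libraries.

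The labels name 2 groups of 3 libraries each, control and HADA (high-altitude de-acclimatization), which is the time after an animal leaves low oxygen for normal oxygen. Per the study's methods, the mice were male C57BL/6j, bought at an age of 8 weeks. The HADA mice spent 28 days in a hypobaric chamber set to an altitude of 6000 m and were then moved to normal oxygen, and the controls stayed in normal oxygen. The day of sampling for the accessibility assay and any pooling of mice are not given in the sources used here, so p-values cover the spread between these libraries, which may be partly technical. The labels and the methods name leukocytes after red cell lysis and no sorting step, but the text of the study's results speaks of mononuclear cells, a fraction that would hold few neutrophils, so whether neutrophils were present in full was not settled here. In such a mixture, fewer cells of a type and less accessibility per cell cannot be told apart.

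PU.1, encoded by Spi1, is an ETS factor that opens myeloid enhancers and is held at a lower level in B cells. The C/EBP factors work beside it: C/EBPα starts the granulocyte and monocyte programme, C/EBPβ and C/EBPδ act in mature and stimulated myeloid cells, and C/EBPε completes the granules of neutrophils. Gfi1 is a repressor that favours neutrophils over monocytes, Irf8 favours monocytes and dendritic cells and is also used by B cells, Klf4 supports monocytes, and Zeb2 is used by monocytes and dendritic cells as well as by effector lymphocytes.

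The height of a peak is given as its summit pileup, the number of read fragments that overlap at the summit, as solved from the values of the deposited lists. Heights were compared on a log2 scale after the median region with a peak in all 6 libraries was set to 0 in each library, and were tested with limma over all such regions. Before this centring, the median region was 0.38 higher in HADA than in control libraries on the log2 scale of pileup over the library's genome-wide background, so each change below is relative to that shift. A second measure, pileup divided by the library's genome-wide background, is given as mean ± SD and was tested by an exact permutation test over libraries (two-sided), which cannot give a p below 0.1 with 3 libraries against 3. Regions are named by gene and by the distance of their tallest summit from the first annotated start, with a minus sign upstream and counted in the direction of transcription.

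The libraries held 34045 to 45799 peaks on the main chromosomes, with 34045 in control 3, the lowest number, and 44044 to 45799 in HADA libraries. The genome-wide background was a pileup of 1.69 to 2.05 in the controls and 1.99 to 2.34 in HADA libraries. The lists hold no library totals, so no counting interval is given. Control 3 stood apart from controls 1 and 2 at lineage markers. Summed over the regions with a peak in all 6 libraries, its height over background was 52.5 at 8 B cell genes, against 258 and 139.7 in the other controls, and 464 at 8 neutrophil genes, against 315 and 205. Without control 3, 14 regions at the 9 factors could be tested and 3 were higher and 5 lower. Over all 27407 regions tested in that setting, 5497 were higher and 6450 lower. The Irf8 −0.2 kb region lost its call there, and the Gfi1 +7.9 kb region, which control 3 had kept out of the test, was called higher (0.96 ± 0.27, limma adjusted p = 0.0146).

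The share of peaks at the 9 genes differed by less than the spread between libraries. It was 5.18 ± 0.65 per 10000 peaks in the controls and 4.70 ± 0.30 in HADA libraries (SD, n = 3), a difference of −0.49 with p = 0.4 in the exact permutation test, and of −0.14 without control 3 and −0.79 without control 1. Of the 28 regions, 12 had a peak in all 6 libraries, 3 had a peak in every HADA library and in 0 control libraries, 1 had a peak in every control library and in 0 HADA libraries, and 12 had peaks in some libraries of either group, 6 of them in a single library. Every gene except Cebpe had a region with a peak in all 6 libraries.

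**Figure D1:**
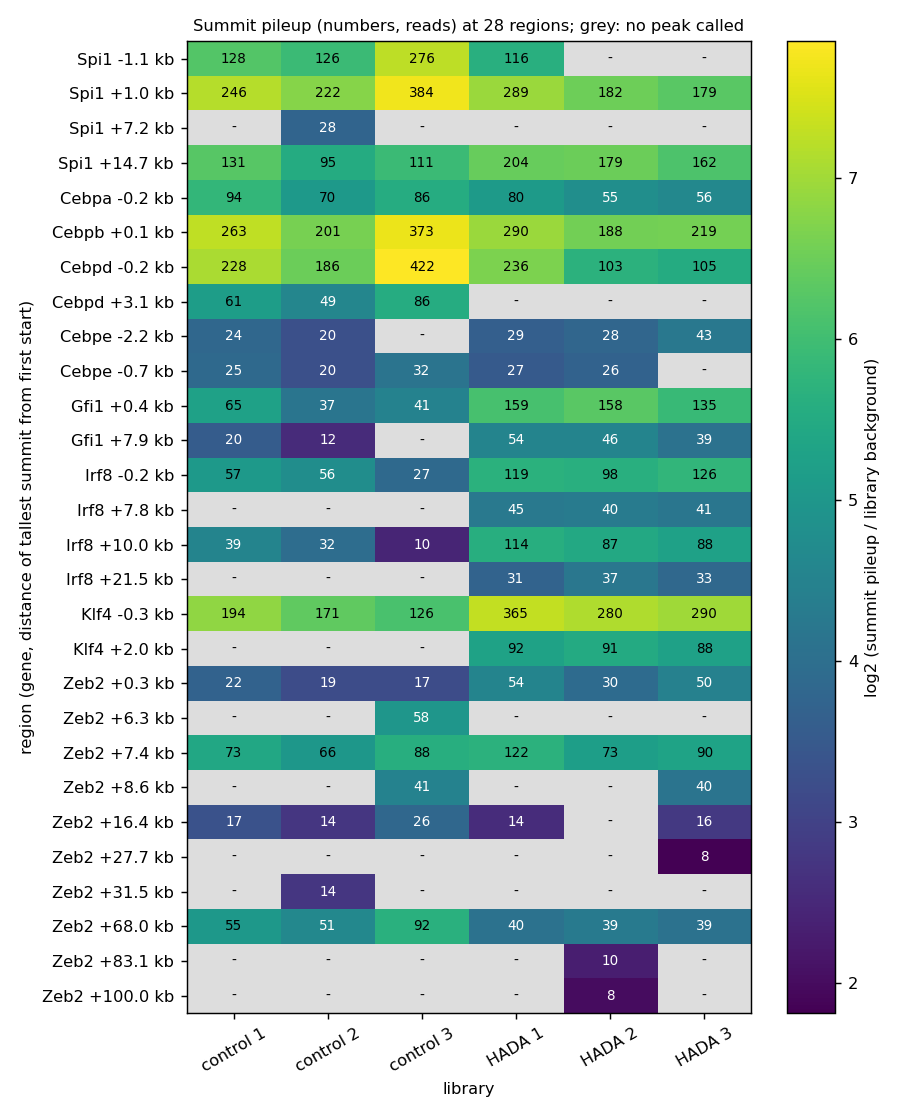
Summit pileup in reads (numbers) at the 28 regions of the 9 genes (rows, named by distance from the first start in kb) in the 6 libraries (columns). Colour gives log2 of pileup over library background, and grey cells had no peak. The Irf8 +7.8 kb, Irf8 +21.5 kb and Klf4 +2.0 kb rows are filled only in HADA columns, and the Cebpd +3.1 kb row only in control columns.

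Height moved in opposite directions within the group. The regions at the starts of Cebpa, Cebpb and Cebpd and intronic regions of Spi1 (+1.0 kb) and Zeb2 were lower in HADA libraries. Of Irf8 2 regions and of Gfi1 1 were higher. In all, 3 of the 12 tested regions were called higher and 5 lower at a limma adjusted p under 0.05, 4 were not called, and the median log2 change was −0.12 (range −1.56 to 1.42), against −0.04 over all 23970 regions tested. Over all of these regions 18.2% were called higher and 24.0% lower, so a call in either direction is common in these libraries and the numbers of members called are to be read against that background. Among the 11879 tested regions within 3 kb of a coding start, 21.1% were higher and 9.69% lower. In the other 12091 tested regions a fall was more common, with 15.4% higher and 38.1% lower, and the Zeb2 +68.0 kb region is 1 of these. The groups did not overlap at 10 of the 12 regions after centring and at 6 of the 12 by pileup over background, against 60.6% and 60.0% of all tested regions.

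The scale of height affected the calls. Without centring, 5 of the 12 regions were called higher and 3 lower, where 32.6% and 17.5% of all tested regions were called. By the rank of the deposited fold enrichment, which divides a summit by the local background of its own surroundings, 2 regions were called higher (Gfi1 +0.4 kb and Spi1 +14.7 kb) and 0 lower by limma (1 lower at an unadjusted p under 0.05), where 7.31% of all tested regions were called higher and 5.42% lower, and the Spi1 +1.0 kb, Cebpa and Cebpb start regions changed sign.

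**Figure D2:**
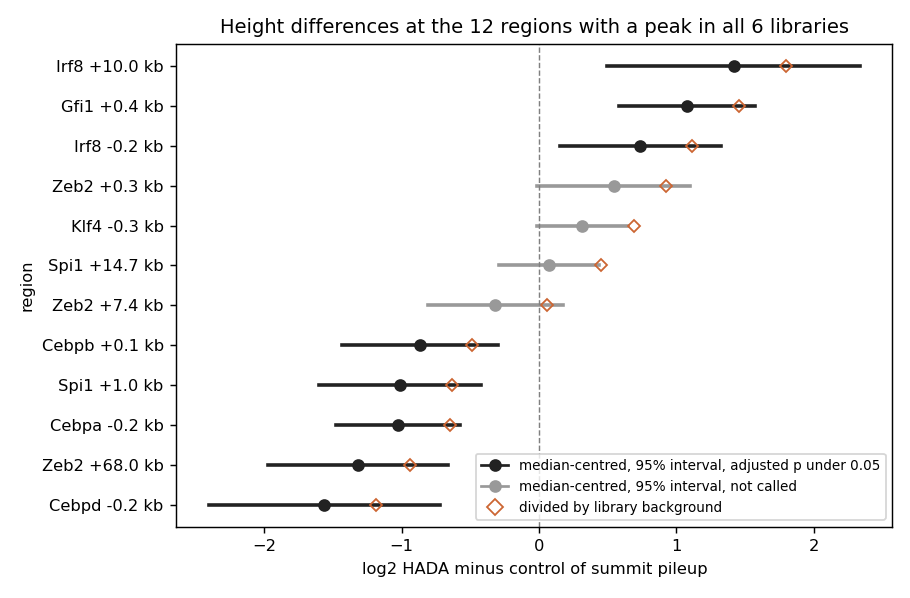
Log2 difference (HADA minus control) in summit pileup at the 12 regions with a peak in all 6 libraries. Circles and lines are the median-centred limma estimates and their 95% intervals, black where the adjusted p was under 0.05, and open diamonds are the same differences over library background, shifted up by 0.38. The regions span −1.56 at Cebpd −0.2 kb to 1.42 at Irf8 +10.0 kb.

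Spi1, with 7 annotated starts, had 4 regions on chromosome 2, among them a pair around its first annotated start and 1 at an internal start. Which start is used in these cells was not tested. The Spi1 −1.1 kb region (chr2:90911219-90911668, GRCm39), outside the gene, had a peak in every control library, with pileups of 128, 126 and 276, and in HADA 1 with 116, and no peak in HADA 2 or HADA 3. At the local background of the neighbouring peak, a summit of at least 50 reads would have been needed for a call in HADA 2 and also in HADA 3. The 300 bases around its tallest summit are shown because they hold a PU.1 motif beside the gene for PU.1 itself. Capitals mark the motif letters searched, here AGGAAGT (PU.1), TGTGGT (RUNX) and CAGGTG (ZEB), on the plus strand of GRCm39 at chr2:90911327-90911626.
Spi1 −1.1 kb: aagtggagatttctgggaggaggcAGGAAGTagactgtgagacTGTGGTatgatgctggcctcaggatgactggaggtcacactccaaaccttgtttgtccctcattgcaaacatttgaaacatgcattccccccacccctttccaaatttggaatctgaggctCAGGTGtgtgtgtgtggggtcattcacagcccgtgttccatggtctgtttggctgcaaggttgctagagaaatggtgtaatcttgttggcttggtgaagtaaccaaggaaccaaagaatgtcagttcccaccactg

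The Spi1 +1.0 kb region (chr2:90912411-90914279), in the first part of the gene with its tallest summit in an intron, was the tallest of the gene. Its pileups were 246, 222 and 384 in the controls and 289, 182 and 179 in HADA libraries. Control 3 was the highest and HADA 2 and HADA 3 the lowest, and the groups were apart only after centring. The log2 change was −1.01 ± 0.26 (SE), with a limma adjusted p of 0.0163. Over background the mean was 155 ± 51.5 in the controls and 97.9 ± 23.1 in HADA libraries (p = 0.2, exact permutation test). Its local background, the pileup expected from the surrounding sequence, was also lower in HADA 2 and HADA 3, at 30.5 and 31.2, than in the controls, at 40.5 to 78.2, with HADA 1 at 50.1 within the control range.

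The Spi1 +14.7 kb region (chr2:90926639-90929093), whose tallest summit lies at an untranslated exon 95 bp past an internal start, was not called. Pileups were 131, 95 and 111 in the controls and 204, 179 and 162 in HADA libraries. Raw pileups were thus higher in every HADA library, whereas the centred values overlapped and the log2 change was 0.07 ± 0.16 with a limma adjusted p of 0.729. By rank of fold enrichment it was 0.70 higher on the normal-score scale, with a limma adjusted p of 0.0414. The remaining region of the gene, at +7.2 kb, had a peak in control 2 alone, with a pileup of 28.

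At the C/EBP genes every called region was lower in HADA libraries. Cebpd, a gene induced by inflammatory signals, had the largest fall among the 12 tested regions. Its start region (Cebpd −0.2 kb, chr16:15704530-15706008) had pileups of 228, 186 and 422 in the controls and 236, 103 and 105 in HADA libraries. HADA 1 lay within the control range before scaling, and HADA 2 and HADA 3 lay below it. The log2 change was −1.56 ± 0.37 with a limma adjusted p of 0.0128, and over background the means were 152 ± 71.6 and 66.2 ± 30.1 (p = 0.2, exact permutation test). Its local background was 21.6 to 39.9 in the controls and 11.5 to 21.7 in HADA libraries.

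A second Cebpd region, at +3.1 kb near the end of the gene (chr16:15707838-15708589), had a peak in every control library, with pileups of 61, 49 and 86, and no peak in any HADA library. The least summit that could have been called there at the local background of the start region was 38, 24 and 25 reads in HADA 1, HADA 2 and HADA 3. Over all regions, 1.88% had peaks in every control library and in 0 HADA libraries, against 1 of the 28 regions here, and 0 with equal numbers of strongest peaks or with peaks of a −log10 q of at least 5. The sequence around the start summit is shown as the place of the largest fall, and it holds no match to the 8 motifs searched (plus strand, chr16:15704785-15705084).
Cebpd −0.2 kb: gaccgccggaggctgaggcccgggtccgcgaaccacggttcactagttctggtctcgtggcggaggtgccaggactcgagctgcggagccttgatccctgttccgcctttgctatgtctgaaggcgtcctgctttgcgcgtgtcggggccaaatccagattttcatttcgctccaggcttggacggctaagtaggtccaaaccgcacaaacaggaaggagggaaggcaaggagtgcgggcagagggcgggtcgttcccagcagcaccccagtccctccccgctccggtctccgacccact

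Cebpa, which directs early granulocyte and monocyte differentiation, had 1 region, at its start (Cebpa −0.2 kb, chr7:34817589-34820164). Pileups were 94, 70 and 86 in the controls and 80, 55 and 56 in HADA libraries. HADA 1 lay between the controls, the other HADA libraries lay below them, and centring set the groups apart. The log2 change was −1.03 ± 0.20 with a limma adjusted p of 0.0079. Over background the means were 45.6 ± 10.9 and 28.8 ± 4.89 (p = 0.2, exact permutation test), and the call was lost there without centring (limma adjusted p = 0.0666).

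Cebpb, a factor of macrophages and of stress granulopoiesis, also had a single region (Cebpb +0.1 kb, chr2:167530005-167531734), which spans its start and lies 844 bp from a start of the coding gene Peds1. Pileups were 263, 201 and 373 in the controls and 290, 188 and 219 in HADA libraries, a range in which control 3 was the highest. The log2 change was −0.87 ± 0.25 with a limma adjusted p of 0.0245, and −0.49 with a limma adjusted p of 0.0736 without centring. Its local background was 37.7 to 68.1 in the controls and 26.2 to 40.5 in HADA libraries.

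Cebpe, needed for secondary granules of neutrophils, had low peaks. Its region at −2.2 kb (chr14:54951434-54952587) had pileups of 24 and 20 in controls 1 and 2, no peak in control 3, and 29, 28 and 43 in HADA libraries. A nearer region, at −0.7 kb (chr14:54949366-54950827), had 25, 20 and 32 in control libraries, 27 and 26 in HADA 1 and HADA 2 and no peak in HADA 3. Each missing peak stood beside the tallest value of the neighbouring region in the same library. Neither region could be tested with all 6 libraries, since each lacked a peak in 1 library. Without control 3 the −2.2 kb region could be tested and was not called (−0.03 ± 0.28, limma adjusted p = 0.936).

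**Figure D3:**
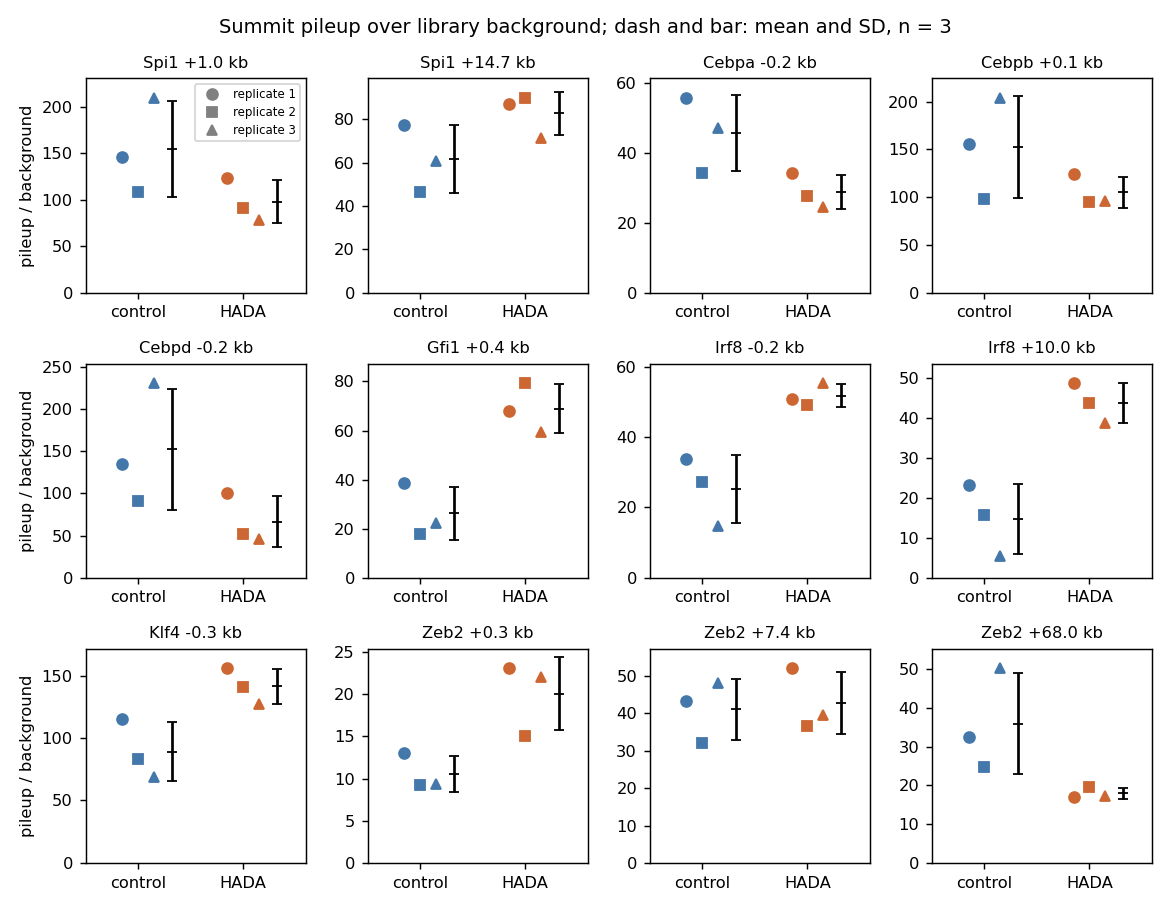
Summit pileup divided by the genome-wide background of the library (y axis, linear, from 0) at the 12 regions with a peak in all 6 libraries, with 1 point per library, shapes for replicate numbers and the mean and SD (n = 3) beside them. Groups do not overlap at Gfi1 +0.4 kb, both Irf8 regions, Klf4 −0.3 kb, Zeb2 +0.3 kb and Zeb2 +68.0 kb.

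Gfi1, the repressor that restrains monocytic genes in neutrophil precursors and is also used in lymphocytes, had 1 region tested with all 6 libraries, which was called higher. This start region (Gfi1 +0.4 kb, chr5:107871313-107874523) had its tallest summit in a coding exon, with pileups of 65, 37 and 41 in the controls and 159, 158 and 135 in HADA libraries. All HADA values exceeded all control values, although the tallest summits were not at the same place. They lay 309 to 353 bp past the first start in HADA libraries and at 420 bp in control 1, but at 2130 and 2235 bp in controls 2 and 3, where control 3 had a separate summit of 39 reads at 712 bp. With merging by summit windows the region could therefore not be tested. Centred, the region changed by 1.08 ± 0.22 on the log2 scale with a limma adjusted p of 0.0086, and over background the means were 26.3 ± 10.8 and 68.9 ± 10.0, a ratio of 2.62 (p = 0.1, exact permutation test). By rank of fold enrichment it was also called higher (0.79, limma adjusted p = 0.0440).

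The second Gfi1 region, in an intron at +7.9 kb (chr5:107865425-107866354), had pileups of 20 and 12 in controls 1 and 2, no peak in control 3, and 54, 46 and 39 in HADA libraries. It had no test with all 6 libraries, since it lacked a peak in control 3, where at least 8 reads would have been needed. Without control 3 it was called higher (0.96 ± 0.27, limma adjusted p = 0.0146). Its sequence is shown because it holds a PU.1 motif (here on the plus strand near the end) and a ZEB motif, at chr5:107865891-107866190, plus strand.
Gfi1 +7.9 kb: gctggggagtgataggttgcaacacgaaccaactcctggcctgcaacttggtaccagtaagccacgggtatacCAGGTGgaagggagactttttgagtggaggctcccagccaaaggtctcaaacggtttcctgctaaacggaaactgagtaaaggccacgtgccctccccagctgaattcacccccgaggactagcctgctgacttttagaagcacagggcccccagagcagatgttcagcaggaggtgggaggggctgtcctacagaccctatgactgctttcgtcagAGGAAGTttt

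All 4 regions of Irf8 went the same way. Both of its shared regions were called higher, and its other regions had peaks only in HADA libraries. At the start region (Irf8 −0.2 kb, chr8:121462544-121464185) pileups were 57, 56 and 27 in the controls and 119, 98 and 126 in HADA libraries. The groups were apart, with control 3 the lowest. This amounted to a log2 change of 0.74 ± 0.26 with a limma adjusted p of 0.0468, close to the threshold. Without control 3 it was 0.40 with a limma adjusted p of 0.0630, and with the replicate number as a block the limma adjusted p was 0.0597. Over background the means were 25.3 ± 9.66 and 51.8 ± 3.21, a ratio of 2.05 (p = 0.1, exact permutation test).

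The Irf8 +10.0 kb region (chr8:121472173-121474865), in an intron 869 bp past an internal start, had a rise whose size rested on control 3. Pileups were 39, 32 and 10 in the controls and 114, 87 and 88 in HADA libraries. No control library reached the lowest HADA value, and control 3 was again the lowest. Its change was 1.42 ± 0.41 on the log2 scale with a limma adjusted p of 0.0233, and the means over background were 14.7 ± 8.85 and 43.7 ± 5.01, a ratio of 2.97 (p = 0.1, exact permutation test). Without control 3 it was 0.83 (limma adjusted p = 0.0040), below the 1.01 of Gfi1 +0.4 kb. Its local background was 2.26 to 8.13 in the controls and 18.9 to 22.1 in HADA libraries, so that the deposited fold was 3.37 to 4.78 in the controls and 4.12 to 4.98 in HADA libraries, and by its rank the region was not called (limma adjusted p = 0.521).

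The peaks found only in HADA libraries were an intronic region at +7.8 kb (chr8:121470531-121471909), with pileups of 45, 40 and 41, and a region in the last exon at +21.5 kb (chr8:121484152-121485085), with pileups of 31, 37 and 33. A call at +7.8 kb would have needed at least 19, 15 and 9 reads in controls 1, 2 and 3, and a call at +21.5 kb at least 14, 13 and 8. HADA pileups were thus above these limits at both places, but the limits rest on a lower local background. At +7.8 kb it was 18.4 to 21.7 in HADA libraries, against 2.26 to 8.13 assumed in the controls, and the deposited HADA fold was 1.98 to 2.12. At +21.5 kb it was 11.9 to 12.6 against 1.92 to 5.42, and the fold was 2.35 to 2.95. Over all regions, 7.01% had peaks in every HADA library and in 0 control libraries, against 3 of the 28 regions here, of which Irf8 held 2. With equal numbers of strongest peaks per library, or with peaks of a −log10 q of at least 5, 1 such region was left in place of 3. Over the 2 shared regions alone, the summed height of Irf8 over background was 56.9, 42.8 and 20.2 in the controls and 99.6, 92.9 and 94.1 in HADA libraries, a ratio of means of 2.39 (p = 0.1, exact permutation test).

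The window around the +7.8 kb summit (chr8:121470796-121471095, plus strand of GRCm39) is printed as an intronic place with peaks only in HADA libraries. It holds 1 match to the KLF motif CCACNCCC, on the minus strand and therefore in reverse complement.
Irf8 +7.8 kb: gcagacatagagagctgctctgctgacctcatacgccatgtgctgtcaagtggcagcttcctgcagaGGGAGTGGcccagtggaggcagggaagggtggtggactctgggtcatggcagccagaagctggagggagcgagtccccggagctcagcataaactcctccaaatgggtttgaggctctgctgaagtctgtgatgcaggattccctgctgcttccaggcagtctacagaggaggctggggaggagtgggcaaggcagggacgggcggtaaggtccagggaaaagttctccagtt

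**Figure D4:**
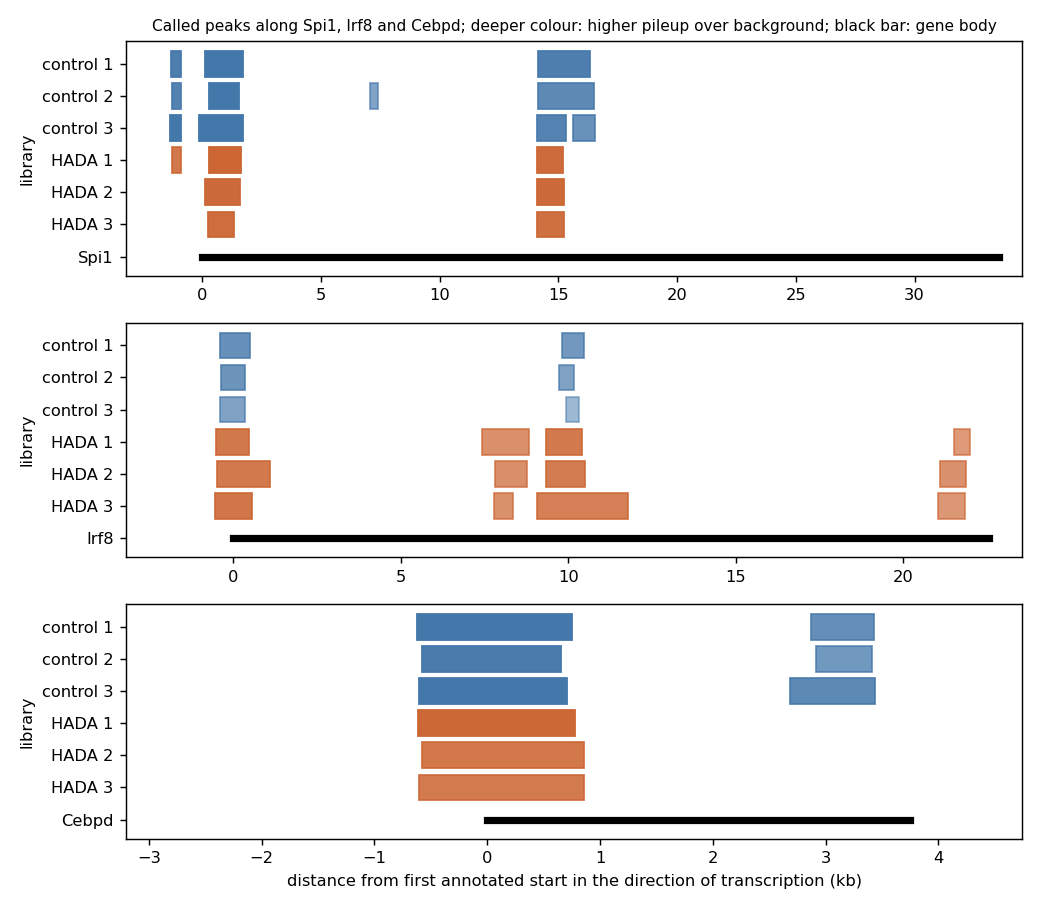
Peaks called in each library (rows, blue for control and orange for HADA) along Spi1, Irf8 and Cebpd, by distance from the first start in kb. The black bar is the gene body, and deeper colour is a higher pileup over background. Peaks at Irf8 +7.8 kb and +21.5 kb appear in the 3 HADA rows only, the Cebpd +3.1 kb peak in the 3 control rows only, and the Spi1 −1.1 kb peak is missing from HADA 2 and HADA 3.

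Klf4, a zinc finger factor of monocytes, had 2 regions. The start region (Klf4 −0.3 kb, chr4:55532173-55533345) had pileups of 194, 171 and 126 in the controls and 365, 280 and 290 in HADA libraries. The groups were apart, with means over background of 89.0 ± 23.6 and 141 ± 14.2 and a ratio of 1.59 (p = 0.1, exact permutation test). Relative to the median region the log2 change was 0.32 ± 0.15 and was not called (limma adjusted p = 0.106), with 0.16 without control 3, and without centring it was 0.70 (limma adjusted p = 0.0113).

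A second region, in a coding exon at +2.0 kb (chr4:55530395-55531648), had peaks only in HADA libraries, with pileups of 92, 91 and 88. A call would have needed at least 34, 31 and 23 reads in controls 1, 2 and 3, given the local background of the start region. The HADA pileups lay above those limits. Their local background was 29.9 to 36.2, against 10.7 to 18.5 assumed in the controls, and their deposited fold was 2.50 to 2.98. Its window (chr4:55530388-55530687, plus strand) is shown because it carries the ZEB motif CAGGTG 3 times, in either orientation, and the KLF motif once.
Klf4 +2.0 kb: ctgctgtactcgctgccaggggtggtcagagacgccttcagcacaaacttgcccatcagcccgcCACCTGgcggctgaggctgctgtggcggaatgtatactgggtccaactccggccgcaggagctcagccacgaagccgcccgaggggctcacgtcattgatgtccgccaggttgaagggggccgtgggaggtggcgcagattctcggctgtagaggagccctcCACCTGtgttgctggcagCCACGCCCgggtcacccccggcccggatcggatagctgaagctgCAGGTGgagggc

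Zeb2, a zinc finger repressor with a long gene, had 10 regions, of which 3 had peaks in all 6 libraries and 5 in a single library. These 3 did not move together. The region at the first start (Zeb2 +0.3 kb, chr2:45006658-45007507) had pileups of 22, 19 and 17 in the controls and 54, 30 and 50 in HADA libraries, with a log2 change of 0.54 ± 0.25 that was not called (limma adjusted p = 0.101) and was called without centring (0.92, limma adjusted p = 0.0140). The tallest region, at +7.4 kb and 17 bp from an internal start (chr2:44999283-45000674), had 73, 66 and 88 in the controls and 122, 73 and 90 in HADA libraries. Its groups overlapped, with means over background of 41.2 ± 8.19 and 42.8 ± 8.22 (p = 0.8, exact permutation test) and a log2 change of −0.32 ± 0.22 (limma adjusted p = 0.256).

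The intronic Zeb2 +68.0 kb region (chr2:44939248-44940213) went the other way. Pileups were 55, 51 and 92 in the controls and 40, 39 and 39 in HADA libraries. All HADA values were below all control values, with control 3 the highest. HADA minus control was −1.32 ± 0.29 on the centred log2 scale with a limma adjusted p of 0.0104, and over background the means were 35.9 ± 13.05 and 17.9 ± 1.42, a ratio of 0.50 (p = 0.1, exact permutation test). The other 7 regions of the gene had pileups of 8 to 58 and no peak in at least 1 library. The window around the +68.0 kb summit (chr2:44939289-44939588, plus strand) is shown as the fall farthest from a first start, and it holds the ZEB motif in reverse complement at 2 places and the AP-1 motif TGANTCA once.
Zeb2 +68.0 kb: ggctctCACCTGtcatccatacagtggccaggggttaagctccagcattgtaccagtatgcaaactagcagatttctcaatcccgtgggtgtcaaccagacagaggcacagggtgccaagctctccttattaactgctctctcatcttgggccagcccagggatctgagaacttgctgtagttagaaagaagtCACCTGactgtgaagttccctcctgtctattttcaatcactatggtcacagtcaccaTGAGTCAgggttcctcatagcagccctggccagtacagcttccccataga

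Motif letters were searched on both strands in the 300 bases around the tallest summit of every region. The PU.1 motif AGGAAGT was in 3 of the 28 windows and in 16.8% of all 62876 windows. The CEBP motif TTGCNNAA was in 3 windows, none of them at a C/EBP gene, and in 12.4% of all. The ZEB motif CAGGTG was in 8 windows and in 22.6% of all, and the KLF motif CCACNCCC in 5 and in 14.9%. The remaining motifs were GAAANNGAA (IRF) in 5 windows and 9.24% of all, TGTGGT (RUNX) in 4 and 24.7%, TGANTCA (AP-1) in 4 and 8.19%, and AAATCAC (GFI1) in 3 and 2.90%. The AP-1 and ZEB letters at Cebpe −2.2 kb overlap. A match describes letters only. The windows were richer in G and C than usual, with a median of 56.8% against 49.7% over all regions.

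Regions at other factors of the same network were called in both directions, as they were over all tested regions (18.2% higher and 24.0% lower). Of 44 shared regions at 16 factors of myeloid and progenitor cells, 9 were higher and 9 lower, with a median log2 change of 0.15. Another 8 had peaks only in HADA and 2 only in control libraries, against 7.01% and 1.88% of all regions, and Gata2 had no peak. Among their tallest start regions, that of Bach2, a repressor used in B and T cells, had pileups of 142, 94 and 40 in the controls and 380, 360 and 336 in HADA libraries and a log2 change of 1.52 ± 0.34 (limma adjusted p = 0.0106). Irf4, the relative of Irf8 used in B cells, changed by 1.46 ± 0.36 (limma adjusted p = 0.0147), and Nr4a1, a nuclear receptor of patrolling monocytes, by −0.50 ± 0.13 (limma adjusted p = 0.0147).

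Among genes on which these factors are known to act, more regions were lower than higher in HADA libraries. At 16 myeloid receptors and effector genes, 16 of 23 shared regions were lower and 0 higher by limma (17 and 0 at an unadjusted p under 0.05). Over all tested regions 24.0% were lower and 18.2% higher. The median log2 change at these genes was −0.96, and Camp had no peak. Itgam, the integrin chain of myeloid cells, fell by 1.75 ± 0.32 (pileups of 82, 62 and 118 against 59, 33 and 30, limma adjusted p = 0.0073). Csf3r, the receptor for granulocyte colony-stimulating factor, changed by −1.44 ± 0.32 (limma adjusted p = 0.0106), and Csf1r, the receptor for the macrophage factor, by −0.94 ± 0.22 (limma adjusted p = 0.0122). Summed over these shared regions, the height over background was 942 to 1618 in the controls and 738 to 963 in HADA libraries, and 2 more regions had peaks only in HADA libraries.

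Marker genes of cell types changed in directions that differed between the types. The counts in this and the next paragraph stand beside 18.2% higher and 24.0% lower over all tested regions. Peaks only in HADA or only in control libraries were found at 7.01% and 1.88% of all regions. At 8 B cell genes all 7 shared regions were higher, with a median of 1.97, and the height over background summed over these 7 was 52.5 to 258 in the controls and 553 to 631 in HADA libraries. A further 10 regions had peaks only in HADA libraries and are in no sum. At 8 neutrophil genes 7 of 8 shared regions were lower, with a median of −1.63 and sums over the shared regions of 205 to 464 in the controls and 118 to 189.7 in HADA libraries, 1 region had peaks only in HADA libraries, and Ngp had no peak. S100a8, a neutrophil alarmin, had pileups of 82, 70 and 157 in the controls and 59, 19 and 24 in HADA libraries. Control 3 was the lowest library at the B cell genes and at both shared Irf8 regions. It was the highest at the neutrophil genes, at Spi1 +1.0 kb, at the Cebpb and Cebpd starts and at Zeb2 +68.0 kb. Over background it was not the extreme control at every called region, since control 1 was the highest at the Cebpa start and control 2 the lowest at Gfi1 +0.4 kb, while by centred height control 3 was the highest at the Cebpa start too.

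At 8 monocyte genes, 3 of 7 shared regions were lower and 1 higher, and 2 regions had peaks only in control libraries (sums over the shared regions of 127 to 171 in the controls and 117 to 126 in HADA libraries). Dendritic cell genes had 3 of 11 higher and 1 lower, with 1 region only in HADA and 1 only in control libraries (145 to 221 and 298 to 309), with no peak at Siglech, and T cell genes had 3 of 11 higher and 0 lower by limma, also 0 lower unadjusted, and 2 only in HADA libraries (319 to 426 and 508 to 565). Natural killer cell genes had 1 shared region, not called, and 1 only in HADA libraries (11.5 to 27.2 and 24.4 to 32.1), and no peak at Klra8. Eosinophil and basophil genes had 1 of 3 higher and 1 lower (42.8 to 54.5 and 43.1 to 60.8), 1 only in HADA libraries and no peak at Epx or Mcpt8. With every peak of these genes summed and a missing peak counted as 0, the ranges were 50.8 to 121 and 183 to 217. Erythroid and platelet genes had 2 of 3 higher (77.9 to 98.9 and 153 to 195), with no peak at Hba-a1. The part of these cell types in the changes at the 9 factors was not tested.

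**Figure D5:**
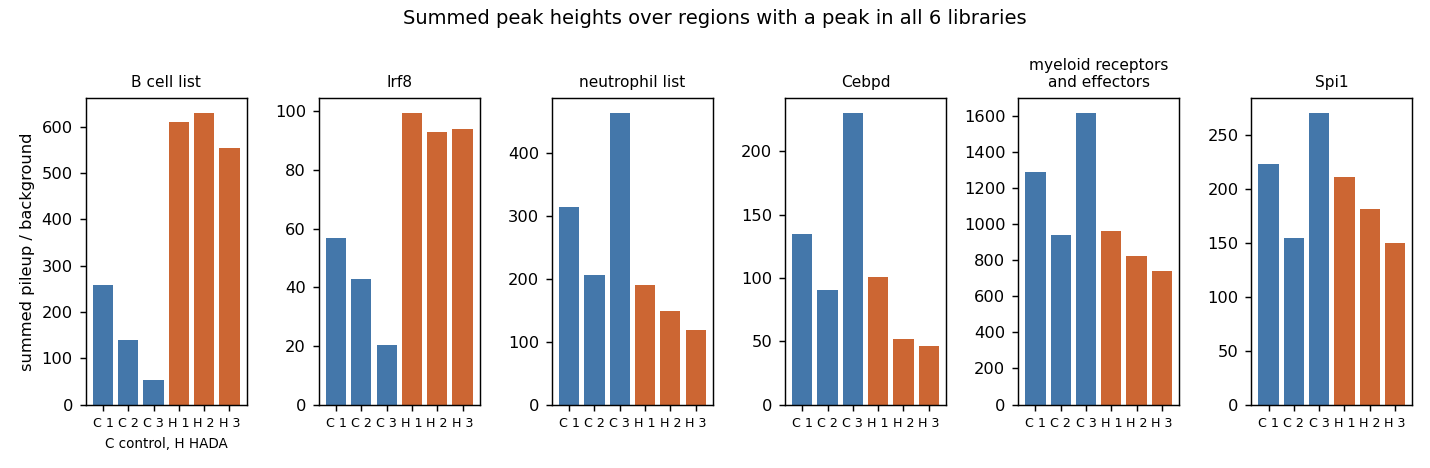
Peak height over library background, summed over regions with a peak in all 6 libraries (y axes, linear, from 0, each on its own scale) for 3 gene lists and for Irf8, Cebpd and Spi1, 1 bar per library (C control, H HADA). B cell genes and Irf8 are higher in each of the 3 HADA libraries and lowest in control 3, whereas the neutrophil list, Cebpd and Spi1 are highest in control 3. Other lists and genes are not drawn, and a link between lists and genes was not tested.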

How the data were processed

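ATAC-seq peak lists of 3 control and 3 HADA libraries were used, grouped by the labels. Per the study's methods and the submitters' processing notes, the authors trimmed reads (Trimmomatic), aligned them to GRCm39 (Bowtie2), removed duplicates (Picard) and called peaks per library with MACS2. Versions, options and any Tn5 shift are not given in the sources used here. The deposited lists give, per peak, the fold enrichment over local background (a ratio), p-values and q-values as −log10, a score and the summit offset in bases, which was read as a position only. The depth of the libraries is unknown.

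Summit pileup and local background were solved as the whole-number pileup that gives both the deposited fold and the −log10 p-value under a Poisson upper tail (relative tolerance 0.0001), which succeeded for 100% of peaks. The genome-wide background is the lowest local background of a library. Peaks sharing 1 bp were merged over libraries into 62876 regions, with the tallest summit kept per library. Log2 heights of the 23970 regions with a peak in all libraries were tested with limma 3.58.1 (R 4.3.3, trend and robust options), with Benjamini-Hochberg adjustment over all of them. The pileup needed for a call at a missing peak assumes the local background of the nearest peak within 5 kb, or else the genome-wide background, and is a lower limit. Genes came from GENCODE M39. The solving was checked on values simulated with the formulas it inverts, and the fit on independent normal noise around each region's mean. Neither check covers a shift of a whole library.

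The 9 genes and all lists were chosen with earlier results of these data known. Every gene is described. Values per library are given for the tallest region within 3 kb of a start, for called regions and for regions of 1 group. The Spi1 −1.1 kb, +7.2 kb and +14.7 kb, Cebpe −0.7 kb, Gfi1 +7.9 kb and Zeb2 +0.3 kb regions were added after their values were seen. From the lists at most 3 genes each are named, by their tallest start region. Alternatives were another scale, ranks, merging, filters, a replicate block and leaving out libraries. Same-numbered libraries did not deviate together (r of −0.08, 0.08 and −0.38), so the numbers were not used as pairs.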

Additional observations from a re-analysis of the deposited data

How the results depend on the processing

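Of the 12 tested regions, 3 were higher and 5 lower. Without centring, the numbers were 5 and 3: Klf4 −0.3 kb and Zeb2 +0.3 kb were gained, the Cebpa and Cebpb starts were lost, and Zeb2 +7.4 kb changed sign to 0.059. By rank of fold enrichment 2 were higher and 0 lower by limma (3 and 1 at an unadjusted p under 0.05), with sign changes at Spi1 +1.0 kb (0.26), Cebpa −0.2 kb (0.25), Cebpb +0.1 kb (0.49), Klf4 −0.3 kb (−0.34) and Zeb2 +7.4 kb (0.01, from 0.0095). Merging by summit windows left 1 higher and 4 lower of 10 regions that could be tested (3664 and 4395 of 19466 over all regions). A −log10 q of at least 5 left 1 higher and 5 lower of 10 (3984 and 4660 of 20572 over all regions). Gfi1 +0.4 kb and the Cebpa start could not be fitted with summit windows, nor Irf8 +10.0 kb and Zeb2 +0.3 kb with the q filter. With regions of 3 or more libraries and missing values at the floor, 6 were higher and 8 lower, of 21 tested, which counts regions left out before. Leaving out 1 library gave 1 to 3 higher and 2 to 5 lower. The lowest numbers came without HADA 1, HADA 2 or HADA 3 for higher (1 each) and without HADA 2 for lower (2), and without HADA 3 there were 3 lower.

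With the replicate block, 2 were higher and 5 lower, Irf8 −0.2 kb being lost (limma adjusted p = 0.0597), and no other call changed. Irf8 −0.2 kb was also lost by rank, with summit windows, with the q filter and with missing values at the floor (limma adjusted p of 0.0504 to 0.851), and on leaving out control 3 or any HADA library. Irf8 +10.0 kb was lost without any 1 HADA library (limma adjusted p of 0.0587 to 0.0746), at log2 changes of 1.36 to 1.48. Without HADA 2, Spi1 +1.0 kb, Cebpb +0.1 kb and Cebpd −0.2 kb were lost, and without HADA 3 the Spi1 and Cebpb regions. Gfi1 +0.4 kb kept its call in each setting in which it was fitted (not with summit windows), and Zeb2 +68.0 kb in each except the rank. Spi1 +14.7 kb, not called, ranged from −0.052 (without control 2) to 0.16 on leaving out 1 library.

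Regions with peaks only in HADA libraries numbered 3, and 1 with equal numbers of strongest peaks or with a −log10 q of at least 5, where the control-only region was 0 and 0. Leaving out 1 library gave 1 to 2 control-only regions, with 2 without HADA 1. Over all regions, the 4364 higher and 5757 lower calls became 7803 and 4195 without centring, 1752 and 1300 by rank, 10216 and 10116 of 44013 with missing values at the floor, and 1156 and 2566 without HADA 2.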

Other observations

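Open regions near the 9 genes but outside their bodies and start windows were also listed, where they lay within 60 kb of the first start and neither in nor within 3 kb of a start of another coding gene. This set was chosen after the results above were known, and distance alone does not tie a region to a gene. There were 44 such regions, 14 with a peak in all 6 libraries, of which 4 were higher and 5 lower by limma, against 15.4% and 38.1% of all tested regions beyond 3 kb of a coding start. Another 9 had peaks only in HADA and 2 only in control libraries, against 7.01% and 1.88% of all regions.

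Irf8 had 13 of them, 3 higher, 1 lower and 3 only in HADA libraries. The region at −34.3 kb had pileups of 106, 76 and 31 in the controls and 276, 226 and 248 in HADA libraries, a log2 change of 1.36 ± 0.33 (limma adjusted p = 0.0141). The region at −10.9 kb had 70, 62 and 12 against 235, 200 and 236 (1.95 ± 0.52, limma adjusted p = 0.0186), and that at 24.1 kb had 34, 29 and 14 against 75, 82 and 84 (1.12 ± 0.30, limma adjusted p = 0.0178). In contrast, the region at −50.1 kb had 73, 53 and 51 against 38, 51 and 51 and a change of −0.96 ± 0.24 (limma adjusted p = 0.0152). The tracts around 1 gene thus held changes of both signs relative to the median region.

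Around Cebpa, 2 of 3 shared regions, both downstream, were lower and 2 others had peaks only in control libraries. Around Cebpb, 2 of 3 were lower, the larger change being −1.97 ± 0.37 at 51.9 kb, with pileups of 78, 90 and 143 in the controls and 71, 28 and 31 in HADA libraries (limma adjusted p = 0.0074). Upstream of Spi1, a region at −3.6 kb had peaks of 130, 106 and 99 in HADA libraries and none in control libraries, next to the −1.1 kb region that lacked a peak in HADA 2 and HADA 3. Gfi1 had 6 such regions, 1 higher and 2 with peaks only in HADA libraries.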
